A study of Mus musculus with 11 samples.

Results

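Adhesion receptors of the mouse liver were followed in situ during injury by acetaminophen (paracetamol, APAP), which in overdose kills the hepatocytes around the central vein. The receptor genes were 7 integrin subunits, Itgb1, Itgb5, Itga1, Itga5, Itga6, Itga9 and Itgav, and the hyaluronan receptor gene Cd44. They were chosen by name, with earlier results of these data known, as 8 of the 31053 genes in the files, and all 8 passed the filter on low counts. The data were spatial gene expression measurements (Visium) on 11 sections of liver: 3 of uninjured liver at 0 h, and 2 at 24 h, 2 at 36 h and 4 at 48 h after APAP. A Visium spot is wider than a cell and pools the polyadenylated RNA of the cells above it, so each value belongs to a small region and not to a cell type.

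The study's methods name C57BL/6JCrl mice, male unless stated otherwise, that were fasted before intraperitoneal APAP dissolved in PBS, and the sections carry no transgene or other agent by their labels. The same methods give n = 1 per time point for the mouse Visium data, and the labels do not say which mouse a section came from. All sections of a time point may thus come from 1 animal. Errors and p-values below therefore cover only the spread between sections, n counts sections, and the mouse and the time point cannot be told apart. Per section, 1490 to 3466 spots were used, with 31292663 to 67045372 unique molecular identifiers (UMIs, that is, captured molecules) in total. In each pair of sections from the same time point the counts differed by more than sampling noise. The 6 hepatocyte marker genes together held between 83584 and 104141 UMIs per 1000000 of a section's plain total, and no marker gene of any cell type checked was at 0 in any section except for 1 platelet gene in a 0 h section.

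Integrins are pairs of an alpha and a beta subunit that span the cell membrane, bind the extracellular matrix outside and couple it to actin inside, and cells use them to hold on, to spread and to crawl. The product of Itgb1 is the most widely shared beta subunit and pairs with the products of Itga1, which binds collagen, Itga5, which binds fibronectin, Itga6, which binds laminin, Itga9, which binds tenascin-C and osteopontin, and Itgav. Itgav also pairs with the product of Itgb5 as a receptor for vitronectin. CD44 is a single-chain receptor for the matrix sugar hyaluronan and is carried by leukocytes and by many epithelial cells during repair. The capture method reads transcripts only and shows neither the surface protein nor which subunits are paired.

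On the mouse genome GRCm38 (GENCODE vM21 annotation), Itgb1 (ENSMUSG00000025809) covers chr8:128685654-128733200 on the plus strand and Itgb5 (ENSMUSG00000022817) covers chr16:33829665-33949338 on the plus strand. Among the alpha subunits, Itga1 (ENSMUSG00000042284) lies at chr13:114953096-115101964 on the minus strand, Itga5 (ENSMUSG00000000555) at chr15:103344286-103366763 on the minus strand, Itga6 (ENSMUSG00000027111) at chr2:71745616-71858416 on the plus strand, Itga9 (ENSMUSG00000039115) at chr9:118606690-118901003 on the plus strand and Itgav (ENSMUSG00000027087) at chr2:83724397-83806916 on the plus strand. Cd44 (ENSMUSG00000005087) lies at chr2:102811141-102901665 on the minus strand. The counts are per gene and do not separate the exons or splice forms of any of them, including the variable exons of Cd44.

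The promoter windows of 4 members are shown because these genes moved apart over the time course described below: Cd44, Itgav and Itga5 rose at all 3 times after APAP, and Itga1 was not called at any. RefSeq (GRCm38.p6) gave a window of 300 bases for 7 of the 8 members, from 250 bases before to 50 bases after a transcript start, and the printed windows are chr2:102901616-102901915 on the minus strand for Cd44, chr2:83724147-83724446 on the plus strand for Itgav, chr15:103366742-103367041 on the minus strand for Itga5 and chr13:115101915-115102214 on the minus strand for Itga1. Each reads 5′ to 3′ on the strand of its gene, and capitals mark the GC box GGGCGG on either strand.
Cd44: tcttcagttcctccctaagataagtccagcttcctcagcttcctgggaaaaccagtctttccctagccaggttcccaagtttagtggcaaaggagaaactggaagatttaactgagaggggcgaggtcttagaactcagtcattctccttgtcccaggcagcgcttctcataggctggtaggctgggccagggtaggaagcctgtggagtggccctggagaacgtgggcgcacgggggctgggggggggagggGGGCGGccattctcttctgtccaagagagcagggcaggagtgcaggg
Itgav: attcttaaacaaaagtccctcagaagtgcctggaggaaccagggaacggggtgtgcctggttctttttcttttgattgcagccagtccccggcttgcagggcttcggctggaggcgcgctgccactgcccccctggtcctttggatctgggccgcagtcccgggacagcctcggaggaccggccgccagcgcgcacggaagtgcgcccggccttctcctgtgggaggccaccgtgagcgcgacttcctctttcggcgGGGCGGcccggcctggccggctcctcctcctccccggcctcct
Itga5: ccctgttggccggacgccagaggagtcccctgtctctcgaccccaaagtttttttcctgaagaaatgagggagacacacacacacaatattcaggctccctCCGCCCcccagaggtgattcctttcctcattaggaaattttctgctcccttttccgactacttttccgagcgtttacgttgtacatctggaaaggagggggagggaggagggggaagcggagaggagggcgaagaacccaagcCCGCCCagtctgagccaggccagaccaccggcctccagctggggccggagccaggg
Itga1: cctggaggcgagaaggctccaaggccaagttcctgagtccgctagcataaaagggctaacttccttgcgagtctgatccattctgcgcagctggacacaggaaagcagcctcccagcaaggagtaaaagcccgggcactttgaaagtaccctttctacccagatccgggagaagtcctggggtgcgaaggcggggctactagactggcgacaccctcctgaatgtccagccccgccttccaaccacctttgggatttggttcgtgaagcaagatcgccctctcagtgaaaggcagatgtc

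The GC box was present in the windows of Cd44, Itgav, Itga5, Itgb1 and Itgb5 and in 35.7% of the 32851 RefSeq promoter windows. No GC box lay in the windows of Itga1 and Itga9. Itgb1 holds a GC box and, like Itga1, was not called at any time against 0 h. The TEAD motif GGAATG was found in the window of Itgb1 among the members and in 14.7% of all windows, and the AP-1 motif TGANTCA in that of Itga9 and in 7.81% of all windows, both strands searched. The window given for Itga9, chr9:118711442-118711741, lies inside the annotated gene. These are matches of letters and not measured binding sites.

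The first question was how each receptor gene changed over the time course. In UMIs summed over the spots of a section, Cd44, Itga5, Itga6 and Itgav rose at 24 h, 36 h and 48 h against 0 h, Itga9 rose at 36 h and 48 h and Itgb5 at 48 h, while Itgb1 and Itga1 were not called at any time. No member fell against 0 h. The members called higher were 4 of 8 at 24 h, 5 of 8 at 36 h and 6 of 8 at 48 h, beside 23.1%, 16.8% and 23.3% of the 14821 genes tested (edgeR's quasi-likelihood test, two-sided, Benjamini-Hochberg adjusted p under 0.05). Called in either direction were 41.7%, 29.2% and 44.2% of all genes. The median log2 fold change of the 8 members was 0.54, 0.60 and 0.50 at 24 h, 36 h and 48 h, beside 0.05, 0.05 and 0.01 over all genes. Since the members were chosen with earlier results of these data known, the comparisons with all genes, here and below, are descriptions only. Levels are given as counts scaled to 1000000 (CPM), that is, UMIs per 1000000 of a section's total after scaling by the trimmed mean of M-values (TMM). TMM centres the bulk of the genes. Scaling by the plain total instead shifted the median log2 fold change of all genes up by 0.33, 0.44 and 0.53 at the 3 times, with 6097 genes higher and 1487 lower at 24 h in place of 3426 and 2754, 7064 and 442 at 36 h in place of 2488 and 1841, and 8920 and 599 at 48 h in place of 3451 and 3101. All changes below are relative to that bulk of genes, and in sums over a section fewer cells of a type and less RNA per cell cannot be told apart.

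Cd44 stood at 8.67, 10.2 and 10.7 CPM in the 0 h sections 2, 3 and 4. It was 24.9 and 31.0 CPM in sections A and B at 24 h, 19.5 and 34.0 CPM in A and B at 36 h, and 42.8, 43.8, 57.1 and 37.4 CPM in A to D at 48 h. Every section after APAP was above every 0 h section, and each 48 h section was above the sections of 24 h and 36 h. Against 0 h its log2 fold changes at 24 h, 36 h and 48 h were 1.50, 1.44 and 2.20, with SEs of 0.234, 0.234 and 0.211 and adjusted p-values of 0.000693, 0.00215 and 4.8e-05. The rise at 48 h was 4.60-fold. In spots thinned to 5000 UMIs each, 3.26% to 4.33% held a Cd44 UMI at 0 h, 11.9% and 14.7% at 24 h, 10.1% and 15.6% at 36 h and 18.2% to 25.3% at 48 h.

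Itga6, the laminin-binding subunit, was the member with the fewest counts and rose by a similar factor. It went from 1.61, 1.80 and 1.92 CPM at 0 h to 5.38 and 8.45 CPM at 24 h, 3.62 and 10.2 CPM at 36 h, and 7.38, 8.68, 10.3 and 6.50 CPM at 48 h. All sections after APAP lay above the 0 h sections, while the 3 later times overlapped one another. For Itga6 the 3 log2 fold changes were 1.96, 1.96 and 2.21, with SEs of 0.378, 0.378 and 0.337 and adjusted p-values of 0.00236, 0.00475 and 0.000562. The calls of Cd44 and Itga6 against 0 h held at all 3 times in every alternative run. At 36 h their size rested on section B, since without it the log2 fold change was 1.028 for Itga6 and 0.98 for Cd44.

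Itgav, which binds vitronectin, fibronectin and other proteins with an RGD sequence, measured 20.4, 24.97 and 25.1 CPM at 0 h, 34.1 and 39.3 CPM at 24 h, 29.5 and 40.8 CPM at 36 h, and 62.1, 57.05, 56.6 and 42.4 CPM at 48 h. No section after APAP reached down into the 0 h range, and each 48 h section was above each earlier one. Itgav had log2 fold changes of 0.64, 0.58 and 1.22 at the 3 times, with SEs of 0.182, 0.182 and 0.158 and adjusted p-values of 0.0157, 0.0350 and 0.000207. The 24 h call was lost without 0 h section 2 (adjusted p = 0.0691) or 24 h section B (adjusted p = 0.113). The 36 h call was lost without any 1 of the 0 h sections (adjusted p from 0.0617 to 0.113), without 36 h section B (adjusted p = 0.274) and with only the sections of 0 h and 36 h in the fit (adjusted p = 0.0605), and the 48 h call was kept in every alternative run. The study's own human migratory hepatocyte signature holds ITGAV and ITGB5, so both genes were already picked by the study, from human nuclei.

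Itga5, the fibronectin-binding subunit, was highest at 24 h. It measured 15.2, 16.8 and 16.0 CPM at 0 h, 34.0 and 39.3 CPM at 24 h, 18.3 and 31.7 CPM at 36 h, and 22.9, 22.3, 24.8 and 21.3 CPM at 48 h. Both 24 h sections lay above every other section, and every section after APAP lay above those of 0 h. Its log2 fold changes were 1.20, 0.64 and 0.51, with SEs of 0.184, 0.185 and 0.158 and adjusted p-values of 0.000613, 0.0253 and 0.0220. The 24 h call held throughout, the 36 h call was lost without any 1 of the 0 h sections, without 36 h section B or with only the 2 groups in the fit (adjusted p = 0.0895), and the 48 h call was lost without 0 h section 2, 0 h section 4 or 48 h section C.

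Itga9, which binds tenascin-C and osteopontin, measured 14.5, 15.7 and 18.1 CPM at 0 h, 21.6 and 22.1 CPM at 24 h, 18.6 and 31.1 CPM at 36 h, and 19.0, 19.97, 26.9 and 23.7 CPM at 48 h. Its sections after APAP were all above those of 0 h, by a margin that in section A at 36 h was smaller than the spread among the 0 h sections. For Itga9 the log2 fold changes were 0.44, 0.63 and 0.48, with SEs of 0.210, 0.209 and 0.178 and adjusted p-values of 0.114, 0.0443 and 0.0487. Both calls were close to the threshold, and each was lost when any 1 of 8 sections was left out, the 3 sections of 0 h and the 2 of 24 h among them in both cases, with 36 h B and 48 h B and D for 36 h and 48 h B, C and D for 48 h. The 36 h call was also lost with no filter on low counts (adjusted p = 0.0530) and with only the 2 groups in the fit (adjusted p = 0.0966), and the 48 h call with all tissue spots (adjusted p = 0.0508). Itga9 was called at 24 h without 36 h section A (adjusted p = 0.0373), with only the 2 groups in the fit (adjusted p = 0.0199) and with plain totals (adjusted p = 0.00876).

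Itgb5, the partner of Itgav in the vitronectin receptor, measured 51.9, 49.1 and 44.1 CPM at 0 h, 42.3 and 40.6 CPM at 24 h, 43.3 and 56.0 CPM at 36 h, and 56.0, 58.7, 72.9 and 66.1 CPM at 48 h. It lay below all 0 h sections at 24 h and above all of them at 48 h. The difference from 0 h was −0.22 on the log2 scale at 24 h (adjusted p = 0.245), 0.04 at 36 h (adjusted p = 0.863) and 0.39 at 48 h (SE 0.122, adjusted p = 0.0236). The 48 h call was lost without 0 h section 3, 0 h section 4 or 48 h section C.

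Itgb1, the shared beta subunit, measured 104.0, 103.4 and 103.9 CPM at 0 h, 103.8 and 127.4 CPM at 24 h, 91.8 and 140.1 CPM at 36 h, and 127.7, 125.0, 143.6 and 135.8 CPM at 48 h. The 48 h sections were all above the 0 h sections, but the log2 fold change of 0.36 (SE 0.138, 95% confidence interval 0.05 to 0.66) had an adjusted p of 0.0549. It was called with DESeq2 (adjusted p = 0.0360), with only the 0 h and 48 h sections in the fit (adjusted p = 0.00515), without either 36 h section, or with plain totals. Without section B of the time its log2 fold change was −0.0025 at 24 h and −0.18 at 36 h, and without section A it was 0.43 at 36 h and called (adjusted p = 0.0382). Itga1, the collagen-binding subunit, lay between 19.6 and 20.4 CPM at 0 h and between 18.2 and 26.4 CPM in the sections after APAP, with overlap at every time. Its 48 h log2 fold change was 0.16 with an interval of −0.12 to 0.45 (adjusted p = 0.330). Scaled by plain totals, Itgb1 was called higher at all 3 times, Itga1 at 36 h and 48 h, and Itgb5 at 36 h.

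**Figure D1:**
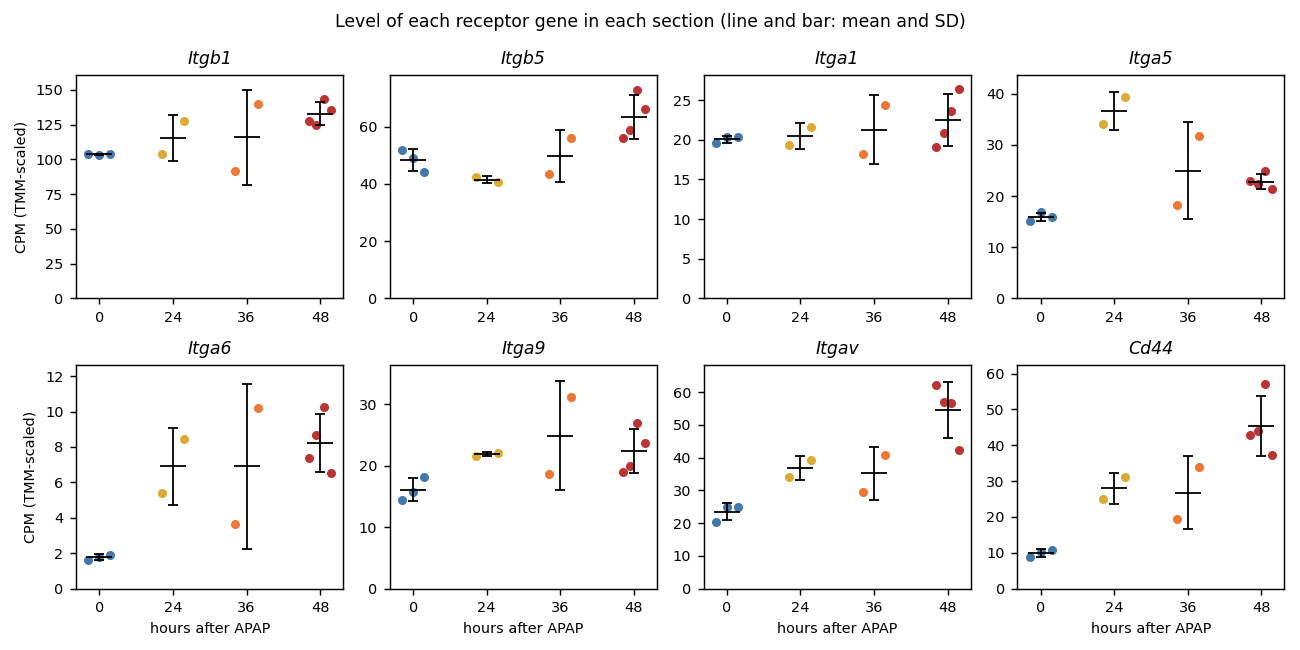
Level of each of the 8 genes in TMM-scaled CPM (vertical axes, 1 panel a gene, each axis starting at 0) in the 11 sections by hours after APAP (horizontal axis); each point is 1 section, each short line the mean of its time point and each bar its SD. Cd44 lies between 8.67 and 10.7 at 0 h and between 37.4 and 57.1 at 48 h, Itga5 is highest at 24 h, and Itga1 overlaps 0 h at every time.

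Section B at 36 h was higher than section A for all 8 members, and its median mitochondrial share of UMIs per spot was 4.56%, beside 4.31% to 6.38% in the 0 h sections and 1.69% to 2.68% in the other sections after APAP. Marker sums of section B were also above those of section A. They were 384 against 124 CPM for myofibroblasts, 66.6 against 25.4 for neutrophils and 56.9 against 17.2 for platelets. Endothelia had 325 against 202 CPM and mesothelia 14.2 against 1.07 CPM. Only the lymphocyte sum went the other way, at 5.19 against 7.01 CPM. The part of these differences in the values of section B was not tested. Leaving out 36 h section B took the calls of Itga5 (log2 fold change 0.19), Itga9 (0.21) and Itgav (0.33) at 36 h away. All sections after APAP lay above all 0 h sections for 5 of the 8 members, Cd44, Itga5, Itga6, Itga9 and Itgav, beside 15.7% of the genes tested. None of the 8 had a section at 48 h that stood apart from the other 3 by Dixon's test.

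The second question was whether the receptors changed further between the injured time points. Against 24 h, the 48 h sections were higher in Itgb5 (log2 fold change 0.61, SE 0.141, adjusted p = 0.00783), Cd44 (0.70, SE 0.227, adjusted p = 0.0370) and Itgav (0.57, SE 0.177, adjusted p = 0.0293) and lower in Itga5 (−0.68, SE 0.172, adjusted p = 0.0119). These were 4 of 8 members, beside 34.1% of all genes called in either direction. No member was called without 24 h section B, and 2 were called without 24 h section A or without any 1 of the 48 h sections A, B and C. Between 24 h and 36 h no member was called (15.6% of all genes) by edgeR or by DESeq2, and 1, Itga5, had an unadjusted p under 0.05. Its difference was −0.55 with an interval of −1.004 to −0.10 (adjusted p = 0.0876), and without 36 h section B it was −0.97 and was called (adjusted p = 0.00699). Between 36 h and 48 h no member was called either (3.05% of all genes), with Itgav at 0.63 (adjusted p = 0.0802) and Cd44 at 0.76 (adjusted p = 0.0972). In the last of these comparisons 3 members had an unadjusted p under 0.05, DESeq2 called Itgav and Cd44, and 3 members were called without 36 h section B. Here and below, no share of all genes was computed for DESeq2, for fits with a section left out or for unadjusted p.

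**Figure D2:**
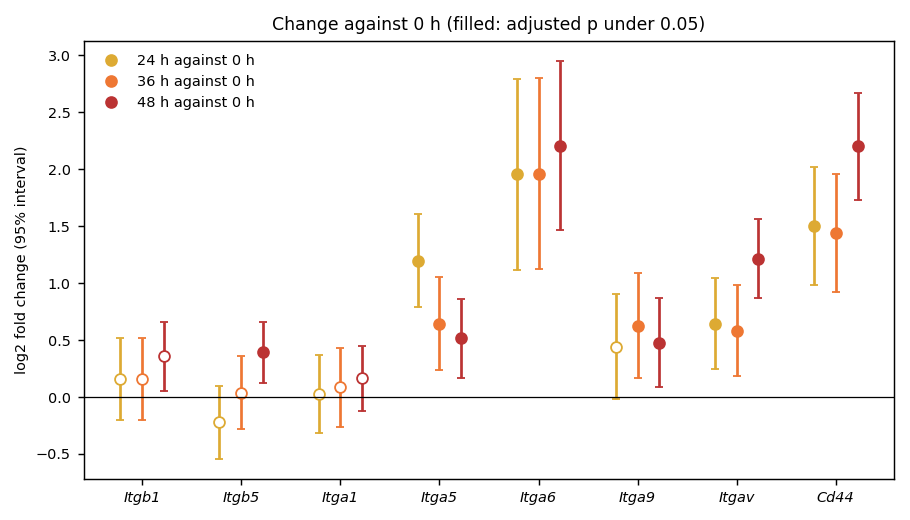
Log2 fold change against 0 h (vertical axis) of each member (horizontal axis) at 24 h, 36 h and 48 h, with the 95% confidence interval of the fit over 11 sections as bars and filled points where the adjusted p is under 0.05. Cd44 lies between 1.44 and 2.20 and Itga6 between 1.96 and 2.21, and the intervals of Itga1 cross 0 at every time.

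Other cell types moved over the same sections. The summed markers of myofibroblasts (4 genes) ran from 37.5 to 45.9 CPM at 0 h, from 70.4 to 99.4 at 24 h, from 124 to 384 at 36 h and from 483 to 1185 at 48 h, and those of mononuclear phagocytes, the macrophages and monocytes (4 genes), from 409 to 434, 553 to 595, 448 to 623 and 722 to 1327 CPM. Neutrophil markers (5 genes) rose from a range of 3.17 to 9.05 CPM at 0 h to 41.5 to 142 CPM at 24 h, 25.4 to 66.6 at 36 h and 35.5 to 113 at 48 h, with all 5 genes called at each time. Platelet markers (3 genes) ran from 4.997 to 7.14 CPM at 0 h, 22.5 to 32.4 at 24 h, 17.2 to 56.9 at 36 h and 59.5 to 151 at 48 h. Markers of stellate cells (5 genes), the pericytes of the liver, ran from 331 to 429, 165 to 191, 194 to 277 and 236 to 308 CPM. Per 1000000 of plain totals they ran from 268 to 336, 162 to 193, 214 to 292 and 269 to 360, so their lower 48 h level depends on the scaling. The endothelial sum (7 genes) ran from 247 to 283, 210 to 228, 202 to 325 and 207 to 264 CPM. With plain totals it ran from 195 to 225, 212 to 224, 223 to 341 and 235 to 307, so its direction depends on the scaling too. The hepatocyte sum (6 genes) was 109755 to 114754 CPM at 0 h and 72897 to 99076 CPM after APAP, an order that depends on the scaling: per 1000000 of plain totals it was 88321 to 90829 at 0 h, 83584 and 93931 at 24 h, 90233 and 104141 at 36 h and 85002 to 101811 at 48 h. The part of these cell types in the receptor changes was not tested.

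The third question was where in the injured lobe the receptors lay. Spots with a hepatocyte marker score under the 1st percentile of the 0 h spots are named hepatocyte-low. Spots that touch such a spot form ring 1, and spots at least 3 grid steps from any are far spots. At 48 h the sections held 118, 27, 165 and 66 hepatocyte-low spots. All 8 members were higher there than in far spots of the same sections, beside 35.9% of the 12915 genes tested (62% called in either direction), with a median log2 difference of 0.72 beside 0.10 over all genes. The result held for all 8 with any section left out, with plain totals and with the 5th percentile as the threshold. None of the 8 genes was in the marker score.

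Cd44 had the steepest gradient of the 8. In UMIs per 1000000 of a class's own total, a scale on which the median of all genes lies 0.44 higher in hepatocyte-low spots and 0.23 higher in ring 1 (log2) than with TMM, it lay between 33.5 and 46.8 in far spots of the 4 sections at 48 h, between 36.4 and 47.4 in spots at the second grid step, between 69.4 and 95.2 in ring 1 and between 169 and 180 in hepatocyte-low spots. The ranges of far spots, ring 1 and hepatocyte-low spots did not overlap. In the 2 uninjured sections with 20 or more hepatocyte-low spots, Cd44 was at 10.6 to 14.5 there, against 6.76 to 8.15 in far spots of the uninjured sections. Itgb1 (68.8 to 74.0 against 81.8 to 83.9) and Itgav (14.5 to 15.1 against 16.2 to 20.4) were lower there. These classes held 36 and 22 spots, and the 0 h differences were not tested. By summed hepatocyte markers the 0 h class was not low. It held 90735 to 91636 UMIs per 1000000, against 88206 to 90846 in far spots at 0 h. The class of the same name at 48 h held 39831 to 54624, so the 2 classes are unlike. At 48 h the log2 difference of Cd44 from far spots was 1.68 (SE 0.065, adjusted p = 4.5e-27) in hepatocyte-low spots. It was 0.82 in ring 1.

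Itga6 followed, at 6.09 to 9.81 UMIs per 1000000 in far spots, 12.9 to 14.6 in ring 1 and 23.6 to 37.5 in hepatocyte-low spots (log2 difference 1.53). Itgav went from 42.7 to 62.4 in far spots through 64.0 to 104 in ring 1 to 102 to 144 in hepatocyte-low spots (0.84), and Itga9 from 19.6 to 26.8 through 26.2 to 35.4 to 49.6 to 69.1 (0.92). The shared subunit Itgb1 lay at 131 to 147 in far spots, 180 to 198 in ring 1 and 258 to 278 in hepatocyte-low spots (0.51). For these genes too, the hepatocyte-low range lay above the far range.

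Of the other 3, Itgb5 was 0.59 higher in hepatocyte-low spots on the log2 scale, Itga5 also 0.59 and Itga1 0.46 (adjusted p = 0.000207). Itga1, which was not called over time, thus passed the test here, at 33.4 to 66.0 UMIs per 1000000 against 20.2 to 28.2 in far spots. In ring 1, 6 of the 8 were called higher, beside 22.4% of genes (43.1% in either direction): Cd44, Itga6 (0.62), Itgav (0.46), Itgb1 (0.21), Itga9 (0.20) and Itgb5 (0.19). Itga1 was at 0.15 (adjusted p = 0.0880) and Itga5 at 0.14 (adjusted p = 0.0818). With the 5th percentile as the threshold, Itga9 and Itgb5 were no longer called in ring 1 and Itga5 was at −0.03.

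**Figure D3:**
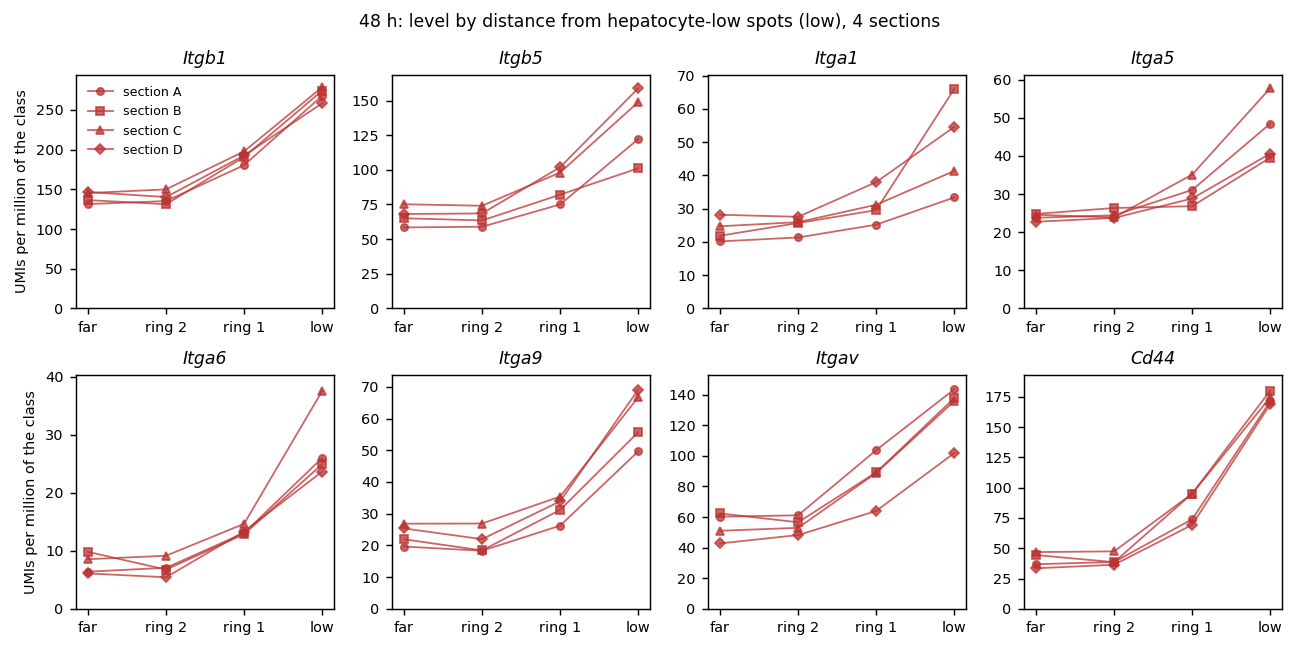
UMIs per 1000000 of a class's total (vertical axis, 1 panel a gene) in far spots, spots at the second grid step, ring 1 and hepatocyte-low spots (horizontal axis) of the 4 sections at 48 h; each line is 1 section. Cd44 goes from 33.5 to 46.8 in far spots to 169 to 180 in hepatocyte-low spots, and all 8 members are highest on average in the hepatocyte-low class.

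The uninjured sections 2, 3 and 4 held 14, 36 and 22 hepatocyte-low spots. At 24 h and 36 h such spots were as few, with 22 and 9 in the 24 h sections and 7 and 5 in the 36 h sections. By count alone the class at these times could not be told from that of uninjured liver. A class needed 20 spots in a section. The 24 h value therefore rests on section A alone, which the fit assumes to vary like the sections of the other times, and the p-value holds no spread between 24 h sections. With that limit Cd44 was called (log2 difference 1.49, adjusted p = 0.00199, beside 0.898% of genes called higher and 4.31% in either direction), at 84.6 UMIs per 1000000 in hepatocyte-low spots against 24.3 in far spots. With the 5th percentile as the threshold the class held 120 and 96 spots in the 24 h sections, and 4 members were called, with Cd44 at 1.46 and Itgb1 at 0.40. The 0 h sections held 78, 156 and 133 such spots, and the share of all genes called at 24 h with this threshold was not computed. In ring 1 at 24 h Itgb1 alone was called (0.34, adjusted p = 0.0359, beside 0.813% higher and 3.35% in either direction), a call lost without either 24 h section or either 36 h section. In ring 1 at 36 h no member was called by edgeR (0.434% higher, 2.98% in either direction), with Cd44 at 0.77 (adjusted p = 0.0760) as the 1 member with an unadjusted p under 0.05. Without 48 h section C, which shares the estimate of the spread, Cd44 was called there (adjusted p = 0.0270). With the 5th percentile as the threshold, the hepatocyte-low class at 36 h gave a value, and Cd44 (1.13), Itga6 (1.69), Itgav (0.76) and Itgb1 (0.27) were called, beside 18.9% of genes in either direction. No member's hepatocyte-low or ring 1 effect was called different between the times by edgeR, with 1 or 2 members at an unadjusted p under 0.05 in each of 4 comparisons. Of all genes, 3.58% differed in the hepatocyte-low effect between 24 h and 48 h, and 0.836%, 0.0232% and 0% in the ring 1 effect between 24 h and 48 h, 24 h and 36 h, and 36 h and 48 h.

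Markers of several cell types followed the same gradient. From far to hepatocyte-low spots at 48 h, the summed markers of mononuclear phagocytes went from 626 to 1112 UMIs per 1000000 to 3037 to 6670, those of myofibroblasts from 401 to 1033 to 2320 to 5878, those of endothelia from 220 to 271 to 470 to 596, those of neutrophils from 34.1 to 87.4 to 130 to 428, those of platelets from 57.0 to 107 to 321 to 681, and those of stellate cells from 251 to 311 to 453 to 571. Hepatocyte markers, which chose the spots, went from 91290 to 104894 down to 39831 to 54624. The part of these cell types in the receptor gradient was not tested.

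**Figure D4:**
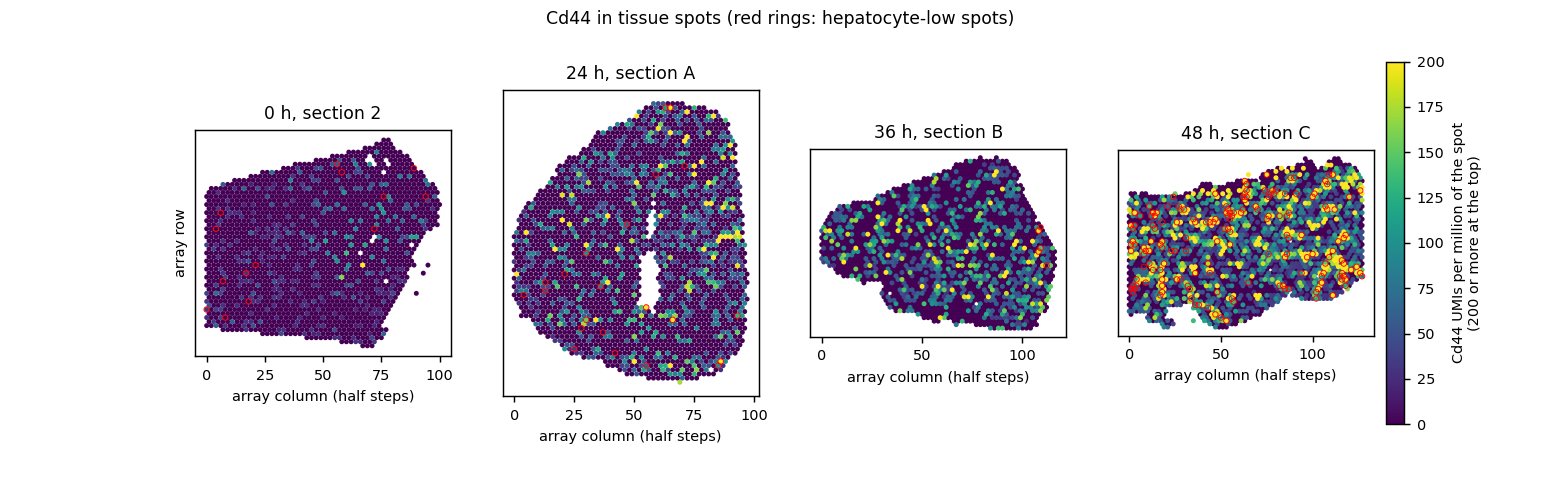
Tissue spots of 1 section per time point at their positions on the spot grid (columns across, rows down), coloured by Cd44 UMIs per 1000000 of the spot's total on 1 scale that ends at 200, with hepatocyte-low spots ringed in red. In section C at 48 h the ringed spots form clusters that fall in patches of high Cd44, and the 0 h section is low almost throughout. The sections shown at 0 h (2, 8.67 CPM) and 24 h (A, 24.9 CPM) had the lowest Cd44 level of their time. Those shown at 36 h (B, 34.0 CPM) and 48 h (C, 57.1 CPM) had the highest, and section C held the most hepatocyte-low spots, 165.

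The fourth question was which marker-rich spots the receptors kept company with. In each section, spots at or above the 90th percentile of the score for a marker list (for hepatocytes, at or below the 10th) were compared with the other spots of that section, and the effect was averaged over 24 h, 36 h and 48 h. Spots tied at the threshold were all taken in, and spots at a score of 0 were left out, so the classes differ in size. In injured sections they held 10.0% of the spots for hepatocytes, 10.0% to 11.35% for phagocytes, 10.0% to 27.0% for myofibroblasts, 9.90% to 24.4% for neutrophils, 11.7% to 25.8% for endothelia and 4.48% to 11.7% for cholangiocytes. In injured sections 7 of the 8 members were higher in spots rich in mononuclear phagocyte markers (28.8% of genes higher, 59.4% in either direction), in myofibroblast markers (27.3%, 57.7%), in neutrophil markers (21%, 41.4%) and in endothelial markers (18.2%, 36.5%), and all 8 in spots poor in hepatocyte markers (22.7%, 49.1%). Itga1 was the one not called in each list of 7. The counts called higher at 24 h, 36 h and 48 h were 6, 7 and 8 in phagocyte-rich spots. They were 5, 6 and 8 in myofibroblast-rich and 6, 3 and 8 in neutrophil-rich spots. Endothelia-rich spots gave 4, 4 and 8 and hepatocyte-poor spots 6, 7 and 8. Shares of all genes at single times are not given. In both 24 h sections Itgb5 was lower in hepatocyte-poor spots, at 38.8 to 40.7 CPM against 43.0 to 45.2 CPM. In spots rich in bile duct (cholangiocyte) markers no member was called by edgeR (0.533%, 0.666%) and 0 of 8 had an unadjusted p under 0.05, and the interval of Cd44 there was −0.03 to 0.22 around 0.09. The 6 rankings were made on the same spots and are not independent of one another. The hepatocyte-poor call of Itga1 (0.17) was lost without 24 h section A or 36 h section B and with 25% of the spots. The calls of Itgb5 were lost in hepatocyte-poor spots without 36 h section B, in neutrophil-rich spots without 36 h section B, 0 h section 3 or 0 h section 4, and in endothelia-rich spots without 24 h section A or 36 h section A. Itga1 became called in phagocyte-rich, myofibroblast-rich and endothelia-rich spots without 36 h section A (0.18, 0.19 and 0.16), in myofibroblast-rich spots also without 48 h section C, and in all but the cholangiocyte ranking with plain totals.

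In spots rich in mononuclear phagocyte markers Cd44 was 49.6 to 129 CPM and 16.4 to 52.1 CPM in the other spots of the 8 injured sections, higher in 8 of 8, with a log2 difference of 1.50 (SE 0.053, adjusted p = 2.4e-19). Itga6 was 1.11 higher on the log2 scale, Itga9 0.78, Itga5 0.75, Itgav 0.61, Itgb1 0.46 and Itgb5 0.33, each in 8 of 8 sections. Itga1 was 0.14 higher, in 6 of 8 sections, with an interval of 0.0022 to 0.28 (adjusted p = 0.0744). Cd44 was also 1.09 higher in spots rich in myofibroblast markers, 1.02 in spots poor in hepatocyte markers, 0.99 in spots rich in neutrophil markers and 0.61 in spots rich in endothelial markers.

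In the uninjured sections none of the 8 was called by edgeR in any of the 6 rankings, where 1.53% (hepatocyte), 1.23% (myofibroblast), 1.43% (phagocyte), 0.0385% (neutrophil), 4.1% (endothelia) and 6.74% (cholangiocyte) of genes were called in either direction. Between 1 and 3 members had an unadjusted p under 0.05 in each. Cd44 came nearest, in spots rich in mononuclear phagocyte markers, at 13.5 to 15.4 CPM against 8.78 to 10.8 CPM in the other spots, higher in 3 of 3 sections, with a log2 difference of 0.53 (adjusted p = 0.0692). It was called there with plain totals, with 25% of the spots in place of 10%, and when 36 h section A or B or 48 h section B, C or D was left out of the fit. In the uninjured sections the classes held 1.35% to 3.28% of the spots for neutrophils, 2.38% to 3.48% for cholangiocytes, 14.9% to 16.6% for myofibroblasts and 12.1% to 22.2% for endothelia, and for the first 3 of these lists the setting with 25% of the spots gave the same classes there. Among the 8 injured sections it left the class unchanged in 8 for cholangiocytes and 6 for neutrophils. That setting therefore could not change the cholangiocyte result.

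The difference between the injured and the uninjured effect was itself tested. In spots rich in mononuclear phagocyte markers it was called for 7 of 8 members, beside 29.9% of genes in either direction, with Cd44 0.97 higher (SE 0.142, adjusted p = 4.2e-06), Itga5 at 0.74 (adjusted p = 1.3e-05) and Itgav at 0.61 (adjusted p = 3.2e-06). It was called for 5 members in spots rich in myofibroblast markers (27.8% of genes), 4 in hepatocyte-poor spots (22.7%) and 2, Cd44 and Itgb1, in spots rich in endothelial markers (8.32%). No member was called in the neutrophil (0.401%) or cholangiocyte (2.01%) ranking, where 6 and 1 had an unadjusted p under 0.05. For Itga1 it was −0.13 with an interval of −0.38 to 0.13 in the phagocyte ranking (adjusted p = 0.493).

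**Figure D5:**
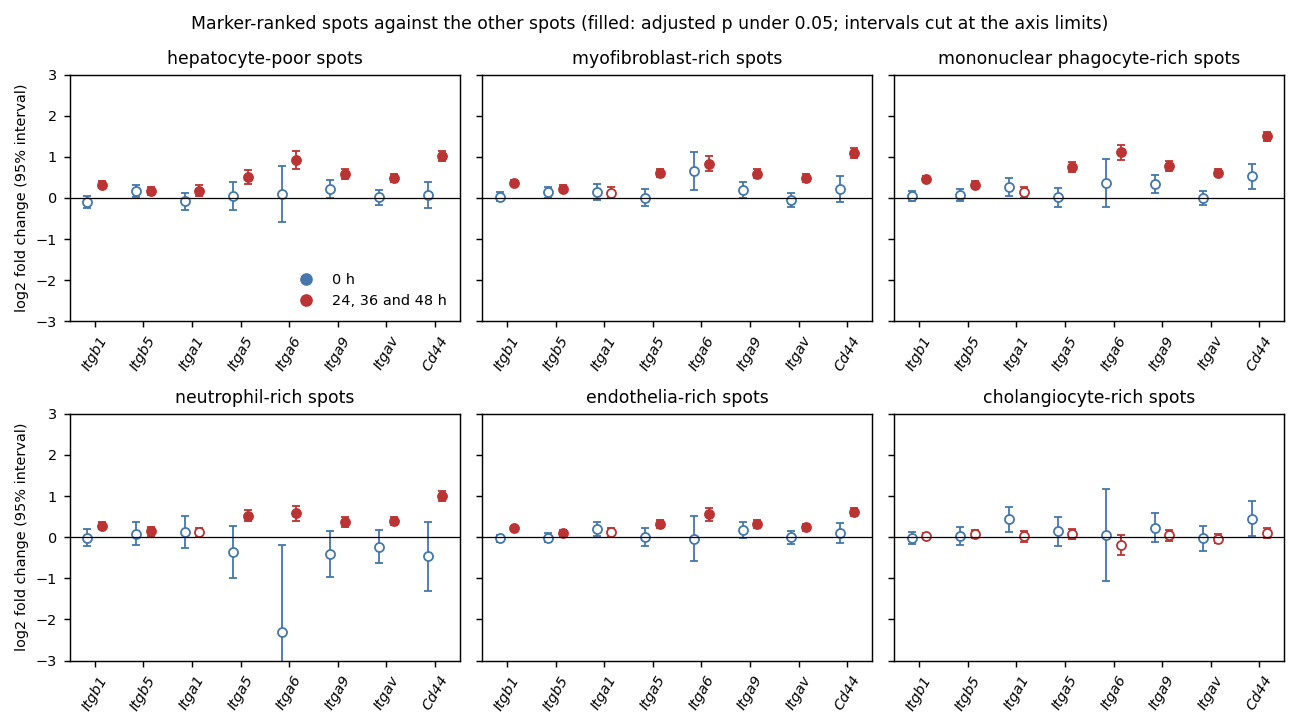
Log2 difference between marker-rich spots (for hepatocytes, marker-poor spots) and the other spots of a section (vertical axis) for each member (horizontal axis) and marker list (panels), in uninjured sections (blue) and as the mean of 24 h, 36 h and 48 h (red), with 95% confidence intervals as bars, cut at the axis limits, and filled points where the adjusted p is under 0.05. In the injured sections Cd44 reaches 1.50 in spots rich in mononuclear phagocyte markers, and the members lie near 0 in spots rich in cholangiocyte markers.

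Before injury the receptors were not spread evenly over the lobule. In the 3 uninjured sections spots were ranked by the study's central and portal hepatocyte genes and split into 3 equal parts, and 5 of the 8 members were lower in the central than in the portal part (12.6% of genes lower, 24.4% in either direction). Cd44 had 5.47 to 6.46 CPM centrally and 8.36 to 10.5 CPM portally, lower in all 3 sections, with a log2 difference of −0.67 (SE 0.098, adjusted p = 9.5e-07). Itga9 was at −0.41 (adjusted p = 9.0e-05), Itga5 at −0.27 (adjusted p = 0.0105), Itga6 at −0.63 (adjusted p = 0.0434) and Itgb5 at −0.12 (adjusted p = 0.0443). Itgav (−0.15, adjusted p = 0.104), Itgb1 (−0.02) and Itga1 (0.02) were not called. The calls of Cd44 and Itga9 held in every alternative, while those of Itgb5, Itga6 and Itga5 were lost with 2 equal parts in place of 3, and each was lost without 0 h section 2 (Itga6 also without 3, Itga5 also without 4, and Itgb5 without any). With plain totals the calls of Itga6 (−0.58) and Itgb5 (−0.07) were lost as well. The study drew its zonation lists on its own spatial data, and no zone was assigned to spots after injury here.

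The wider adhesion machinery was followed in 5 gene lists, also chosen with earlier results of these data known. Among other integrin subunits, 18 of 20 listed genes were tested, and 6, 7 and 7 rose and 1, 1 and 1 fell at 24 h, 36 h and 48 h against 0 h. Over all genes 23.1%, 16.8% and 23.3% were called higher and 18.6%, 12.4% and 20.9% lower at these times. Itgb2, the beta subunit of leukocyte integrins, rose from a mean of 8.02 CPM at 0 h to 31.8 CPM at 48 h (log2 fold change 1.99). Among matrix ligands of integrins and CD44, 27 of 28 were tested, and 13, 15 and 18 rose and 0, 2 and 3 fell, beside 23.1%, 16.8% and 23.3% of all genes higher. The fibrillar collagen genes Col1a1 and Col3a1 were highest at 48 h: Col1a1 had means of 2.65, 6.04, 50.4 and 194 CPM and Col3a1 23.8, 17.2, 79.4 and 346 CPM at 0 h, 24 h, 36 h and 48 h. Both are also in the myofibroblast marker list.

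Tnc and Thbs1 were highest at 24 h. Tnc, tenascin-C and a ligand of the Itga9 product, had means of 0.495, 21.3, 15.5 and 12.5 CPM, and Thbs1, thrombospondin-1, had 0.630, 32.7, 3.99 and 5.15 CPM. Their log2 fold changes at 48 h were 4.70 and 3.03, beside 6.20 for Col1a1 and 3.86 for Col3a1. Of the genes that make, break down or bind hyaluronan, the ligand of CD44, 10 of 13 were tested, and 2, 2 and 2 rose and 1, 0 and 1 fell, a share close to the 23.1%, 16.8% and 23.3% of all genes called higher. The gene that met the rule for naming was Hyal2, a hyaluronidase, at −0.39 at 48 h (adjusted p = 0.00628), a direction that turned to 0.14 with plain totals.

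Inside the cell, 10, 11 and 11 of the 26 tested adaptors and kinases rose and 3, 2 and 5 fell, beside 23.1%, 16.8% and 23.3% of all genes higher and 18.6%, 12.4% and 20.9% lower. On the log2 scale Flna, the actin crosslinker filamin A that binds integrin tails, was 1.997 higher at 48 h. Ezr and Msn, ezrin and moesin, which link CD44 to actin, were both 1.49 higher, and Fermt3, the kindlin of blood cells, was 1.40 higher. Among membrane partners, 11 of 12 were tested, and 5, 4 and 6 rose and 1, 2 and 2 fell, beside the same shares of all genes. Plaur, the urokinase receptor, had means of 0.477, 14.5, 7.26 and 7.61 CPM (log2 fold change 4.01 at 48 h). The tetraspanin genes Cd63 (3.23), Cd9 (0.55) and Cd151 (0.51) also rose. The median log2 fold changes of the lists at 48 h were 0.70 for the other integrins, 1.16 for the ligands, 0.12 for the hyaluronan genes, 0.15 for the adaptors and kinases and 0.40 for the partners, beside 0.01 over all genes. With plain totals, no gene of the 5 lists was called lower at 48 h, and 13, 22, 7, 21 and 7 were called higher in that order.

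Finally, the genes whose levels ran most like each receptor's over the 11 sections were listed among 7093 genes, by Pearson's r of log2 CPM. These correlations are descriptions: the points share time points, libraries and, with n = 1 per time point in the methods, possibly mice. Cd44 ran with Iqgap1 (r = 0.991), Tpd52 (0.988) and Metrnl (0.986), and Itga6 with Fxyd5 (0.985), Msn (0.983) and Nid1 (0.982). Itgav ran with Agfg1 (0.977), Plscr1 (0.966) and Anxa3 (0.964). Itga5 ran with Fkbp1a (0.967), Ctla2a (0.961) and Picalm (0.961). Itgb5 ran with Timp2 (0.964), Lhfp (0.963) and Ostf1 (0.959). For Itga9 they were Shisa5 (0.950), Kctd10 (0.933) and Itm2c (0.932), for Itgb1 Cd52 (0.959), Slc11a1 (0.945) and Ifngr2 (0.944), and for Itga1 Lmf2 (0.884), Lst1 (0.876) and Fcgr3 (0.865). Among the members themselves r was highest for Itga6 with Cd44 (0.967) and Itgav with Cd44 (0.959) and lowest for Itgb5 with Itga5 (−0.106).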

How the data were processed

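The deposited values were raw UMI counts per gene and spot, written by the authors with Space Ranger 1.0.0 on mm10, with Seurat 4.1.1 also named in the submitters' processing notes, and with no normalisation or spot filter applied. Of 4992 spots per file, the spots used lay under the authors' tissue mask and had 800 or more genes and no more than 20% of UMIs from mitochondrial genes, as in the study's methods. Their counts were summed per section. Replicates are sections, grouped by the labels' time points.

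Section sums (14821 genes after filterByExpr) were fitted with edgeR 4.0.16 (R 4.3.3; TMM scaling, robust quasi-likelihood fit of all 11 sections, common biological coefficient of variation 0.194). Spot classes were summed per section and tested with the section as a block and a class effect for each time point. All p-values are two-sided and were adjusted by Benjamini-Hochberg over the genes of a comparison, and a gene was called at an adjusted p under 0.05. The test scripts were checked on simulated counts. Their spread was fixed below that of the section sums here, so the check does not give error rates for these data.

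For hepatocyte-low and central or portal classes spots were thinned to 2000 UMIs, and for marker-rich classes to 5000. A class needed 20 spots in a section. Scores were means of the natural log of 1 plus UMIs per 10000. Promoter windows came from RefSeq (GRCm38.p6) and gene positions from GENCODE vM21. The members and gene lists were chosen with earlier results of these data known. Named were all 8 members, up to 4 genes of a related list called at 48 h against 0 h with the largest change and at least 5 CPM on average, and the 3 genes most like each member with at least 10 CPM on average. The alternatives were DESeq2 1.42.0, plain total scaling, no low-count filter, all tissue spots, only the groups compared, other class thresholds, a block on the replicate letter, and each section left out in turn. Images were not used here. Intervals cover the spread between sections only.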

Additional observations from a re-analysis of the deposited data

Results flagged for a closer look

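The class effect of 18 pairs of member and marker ranking differed between injured and uninjured sections by the interaction term of the edgeR fit (injured effect minus 0 h effect, log2 scale, adjusted p from 3.2e-06 to 0.0435). All 18 differences were positive. In spots poor in hepatocyte markers the difference was 0.42 for Itgb1, 0.35 for Itga9, 0.48 for Itgav and 0.95 for Cd44. In spots rich in myofibroblast markers it was 0.33 for Itgb1, 0.60 for Itga5, 0.39 for Itga9, 0.54 for Itgav and 0.87 for Cd44. In spots rich in mononuclear phagocyte markers it was 0.43 for Itgb1, 0.26 for Itgb5, 0.74 for Itga5, 0.74 for Itga6, 0.44 for Itga9, 0.61 for Itgav and 0.97 for Cd44. In spots rich in endothelial markers it was 0.25 for Itgb1 and 0.51 for Cd44.

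Several of these rested on single sections. The Itga6 difference was no longer called without any 1 of the 3 uninjured sections, 24 h section B, 36 h section A or any 1 of the 48 h sections. That of Itga9 in hepatocyte-poor spots was lost without 0 h section 2 or 3, 24 h B, 36 h B or 48 h A, and in phagocyte-rich spots without 0 h section 3. That of Itgb5 was lost without 0 h section 2 or 4 or 24 h B, that of Itgb1 in endothelia-rich spots without 0 h section 3, and that of Cd44 in endothelia-rich spots without 0 h section 2 (0.35, adjusted p = 0.224). The other differences kept their call when any 1 section was left out.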

How the results depend on the processing

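The calls of Cd44 and Itga6 against 0 h and of all 8 members in hepatocyte-low spots at 48 h held under every alternative run. With plain totals, the members called became 8 at 36 h against 0 h, beside 7064 genes higher and 442 lower of 14821. At 48 h against 36 h 1 was called, beside 383 genes higher and 133 lower. The members called became 3 in hepatocyte-low spots and 2 in ring 1 at 24 h, 1 in ring 1 at 36 h, 1 each in phagocyte-rich and cholangiocyte-rich spots at 0 h, and 3 in central against portal spots. Itgb5 at 24 h turned from −0.22 to 0.10. With only the compared groups in the fit, 2 were called at 36 h and Itga1 at 24 h turned to −0.0097, and with no low-count filter it was −0.017. DESeq2 called 2 at 48 h against 36 h. With the 5th percentile as the threshold, 4 were called in hepatocyte-low spots and 3 in ring 1 at 24 h, 1 in ring 1 at 36 h, and Itga5 in ring 1 at 48 h turned to −0.032. With 25% of spots, 2 were called in phagocyte-rich spots at 0 h, and with 2 equal parts, 2 in central against portal spots. Where no share of all genes is given, here and below, it was not computed, and the counts show only how the members' calls moved. For the changed counts the cause was not tested.

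Leaving out 1 section at a time, the members called ranged from 3 to 5 at 24 h, 2 to 6 at 36 h (2 without any 0 h section or 36 h B) and 3 to 7 at 48 h against 0 h (3 without 0 h section 4 or 48 h C). They ranged from 0 to 1 at 36 h against 24 h, 0 to 3 at 48 h against 36 h (3 without 36 h B), 0 to 4 at 48 h against 24 h, 0 to 1 in ring 1 at 24 h and at 36 h, 0 to 1 in phagocyte-rich spots at 0 h and 2 to 3 in central against portal spots. Members that were not called changed sign in some of these: Itgb1 ranged from −0.0025 to 0.30 and Itga1 from −0.058 to 0.10 at 24 h, and Itgb1 from −0.18 to 0.43, Itgb5 from −0.16 to 0.21 and Itga1 from −0.14 to 0.27 at 36 h.

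The labels do not say whether the letters A and B pair sections. The correlations of the A minus B deviations between times were 0.27, −0.155 and −0.0893, with no reference for unpaired sections, so they cannot settle it. With the replicate block on the letter, 0 members were called at 48 h against 24 h, with Itgb5 at 0.47, Itga5 at −0.68, Itgav at 0.71 and Cd44 at 0.65, in a fit that had only 6 sections.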
